A study of Mus musculus with 4 samples.

Results

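The delta protocadherins are a family of cell adhesion genes, and their RNA was counted here in single nuclei of the mouse hippocampus. The rows of the count table whose symbol was Pcdh1, Pcdh7, Pcdh8, Pcdh9, Pcdh10, Pcdh11x, Pcdh17, Pcdh18 or Pcdh19 were taken, which gave 9 of the 32285 genes counted. Wild-type (WT) mice were set against heterozygous knock-in mice (Cyfip2+/R87C, called KI), whose single altered allele of Cyfip2 models the infantile epilepsy West syndrome. Adult animals on a C57BL/6N background were used, and the change is in the germ line, so that all cells carry it. There were 2 mice per genotype, with a separate library of hippocampal nuclei from each and a single batch label for all 4. KI replicate 2 is labelled R88C in its treatment field and R87C in its protocol field, and its genotype label put it with the KI mice. With n = 2 per group, p-values measure the spread between single mice.

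Protocadherins are transmembrane proteins with a row of cadherin repeats outside the cell, through which like molecules on neighbouring cells bind weakly to each other. The delta group is encoded by single genes spread over the genome, unlike the clustered protocadherins, and falls into the delta-1 branch (Pcdh1, Pcdh7, Pcdh9 and Pcdh11x) and the delta-2 branch (Pcdh8, Pcdh10, Pcdh17, Pcdh18 and Pcdh19), which differ in conserved motifs of their cytoplasmic tails. Several delta-2 tails bind the WAVE complex, the actin regulator of which the Cyfip2 protein is a subunit, whereas delta-1 tails bind protein phosphatase PP1. In the brain the family is known for sorting axons and shaping synapses, and loss of human PCDH19 causes an epilepsy.

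The 4 libraries held between 73009975 and 80913580 UMIs (unique molecular identifiers, which stand for captured transcript molecules), and between 11925 and 14933 nuclei per library were kept, with a median of 3867 to 4692 UMIs per nucleus. Any pair of libraries shared 40 to 67 barcodes, at most 0.529% of the smaller library. Nuclei were clustered without the 9 genes and named by marker genes, which gave 13 classes and 5 interneuron subtypes with at least 20 nuclei in every library. The cluster led by Fras1 was left unnamed because only 3 of its 7 best markers, those of CA1 pyramidal neurons, were raised. Dentate gyrus (DG) granule neurons, in which 7 of 8 markers were raised, were made up of a pair of clusters that separated by genotype. The larger, led by Glis3, held 90.7% and 90.8% of the WT granule nuclei and 4.12% and 20.5% of the KI ones. The smaller, led by Acvr1c, held the remaining 9.32% and 9.16% of WT and 95.9% and 79.5% of KI nuclei. The nuclear transcript Malat1 took 8.38% and 8.41% of granule neuron UMIs in WT and 16.9% and 14.1% in KI. Cyfip2 itself over all nuclei had 182 and 180.4 CPM (the usual depth-scaled unit, in which all libraries have the same total) in WT against 172 and 171 CPM in KI (log2 fold change -0.03, SE 0.08, adjusted p = 0.859), and counts of 3' ends do not read the altered codon.

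Levels in a class are CPM scaled to all UMIs of that class in that library. They are described without a test and compared between classes within a gene, never between genes, because gene length differs. The order of classes differed between members. In the delta-1 branch, Pcdh7, an adhesion protein whose tail also binds the phosphatase inhibitor SET, was highest in oligodendrocyte precursor cells (OPC), at 1328 and 1268 CPM in WT against 959 and 1111 CPM in KI. Fibroblasts (mean 904 CPM), subicular or cortical excitatory neurons (899 CPM), astrocytes (836 CPM) and all inhibitory neurons together (712 CPM) followed, and each of these neighbours overlapped the next over the 4 libraries. The cluster led by Fras1 (553 CPM) stood apart from its neighbours on both sides. CA3 pyramidal neurons had 418 CPM and CA1 pyramidal neurons 306 CPM, with Cajal-Retzius cells between them and overlapping both. Oligodendrocytes had the lowest mean over the 4 libraries (164 CPM, range 133 to 179), and they overlapped microglia and mural cells. In WT alone they were at rank 10 of 13, and microglia were lowest (92.3 CPM). Among interneuron subtypes, Pcdh7 was lowest in Lamp5 cells (280.2 CPM) and highest in Vip cells, with 1225 and 1058 CPM in WT against 1193 and 1165 CPM in KI.

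Pcdh9, a delta-1 member enriched at sites of contact between neurons, was highest in oligodendrocytes, with 9780 to 10710 CPM in the 4 libraries. No other class came within that range, and OPC (5345 to 5815 CPM) and subicular or cortical neurons (5043 to 5512 CPM), the next in order, overlapped each other. CA3 pyramidal neurons (4415 CPM) stood above CA1 pyramidal (2673 CPM) and DG granule neurons (2557 CPM), and the last of these overlapped CA1. Pcdh11x, on the X chromosome, was also highest in the oligodendrocyte lineage, with 565 CPM in OPC and 525 CPM in oligodendrocytes. Oligodendrocytes varied widely between libraries, from 273 CPM in KI replicate 1 to 861 CPM in KI replicate 2, whereas CA1 pyramidal neurons were lowest at 12.2 to 13.6 CPM. Pcdh1, better known from epithelia, showed the least contrast. Its class means ran from 22.0 CPM in inhibitory neurons to 56.0 CPM in mural cells, and all 12 pairs of neighbours in the order overlapped. The mural value rested on 1, 1, 4 and 2 UMIs in the 4 libraries.

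In the delta-2 branch, Pcdh10, which steers growing axons and helps to remove excitatory synapses, was highest in astrocytes, at 207 and 235 CPM in WT against 302 and 304 CPM in KI. OPC (164 CPM) came next, and both classes stood apart from their neighbours. DG granule neurons were lowest, at 28.8 and 28.8 CPM in WT against 17.5 and 28.8 CPM in KI. Pcdh17, which gathers at synapses of corticostriatal circuits, was highest in OPC (386 CPM). DG granule neurons were second at 284 and 282 CPM in WT against 316 and 319 CPM in KI, apart from OPC above and from astrocytes (254 CPM) below. CA1 (122 CPM) and CA3 pyramidal neurons (117 CPM) had less than either and overlapped each other. Pcdh8, also called arcadlin, is an activity-induced gene whose protein takes N-cadherin off the synaptic membrane. Of the neurons with large classes, DG granule neurons had the highest mean (30.7 CPM), and CA1 (12.8 CPM) and CA3 pyramidal neurons (9.60 CPM) were near the bottom. Mural cells led the order at 47.1 CPM, but from 0, 3, 1 and 2 UMIs.

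Pcdh18 was low in the principal neurons. Its mean was 0.239 CPM in DG granule neurons, 0.461 CPM in CA1 and 0.0853 CPM in CA3 pyramidal neurons, and 2.14 CPM in all inhibitory neurons, where Vip (6.50 CPM) and Sst cells (4.83 CPM) had more. It reached 51.4 CPM in mural cells, where 3, 1, 1 and 2 UMIs were counted. Mural cells did not overlap fibroblasts, the next of the 13 classes (6.00 CPM), but they overlapped the endothelial cells, which were too few to be fitted (24.9 CPM), and at these counts the order below cannot be read. Pcdh19, the X-linked epilepsy gene, was highest in mural cells too (199 CPM, from 4 to 9 UMIs per library). Inhibitory neurons (110.0 CPM), DG granule neurons (105 CPM) and CA1 pyramidal neurons (105 CPM) came next and overlapped one another, and CA3 pyramidal neurons had 58.8 CPM. When levels were mean UMIs per nucleus instead, which favours cells with much RNA, Pcdh10, Pcdh11x and Pcdh18 kept their highest class. The highest class became CA3 pyramidal neurons for Pcdh1 and Pcdh9, subicular or cortical neurons for Pcdh7, DG granule neurons for Pcdh8 and the cluster led by Fras1 for Pcdh17 and Pcdh19. Mural cells were 107 nuclei in all, so that 1 UMI was worth 24.8 CPM or more there.

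**Figure D1:**
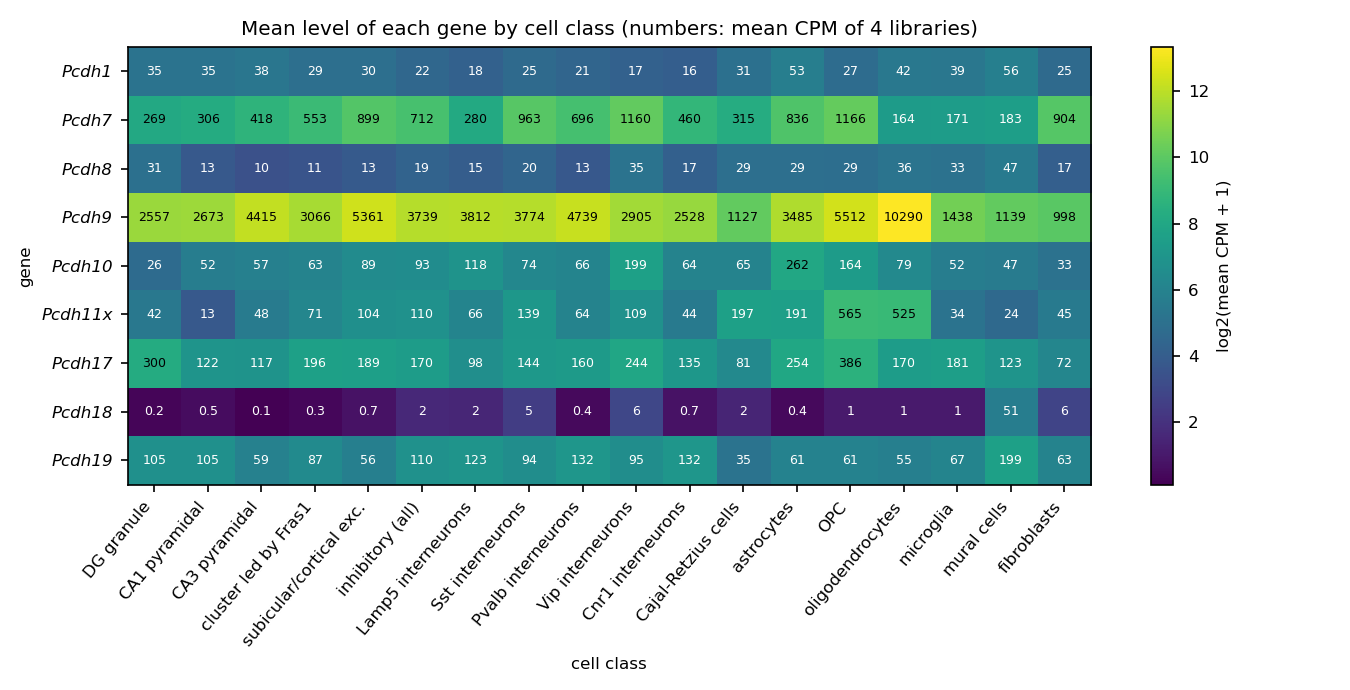
Heat map of the mean level of each of the 9 genes (vertical axis) in 13 cell classes and 5 interneuron subtypes (horizontal axis); numbers are mean CPM over the 4 libraries and colour is log2(mean CPM + 1). The leading class was OPC for Pcdh7 (1166), Pcdh11x (565) and Pcdh17 (386), oligodendrocytes for Pcdh9 (10290), astrocytes for Pcdh10 (262) and mural cells for Pcdh1 (56.0), Pcdh8 (47.1), Pcdh18 (51.4) and Pcdh19 (199); rows are not comparable with each other, since gene length differs.

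The place of DG granule neurons in these orders depended on the genotype for some members. For Pcdh7 they were at rank 12 of 13 in WT (123 CPM ± 8.90, SD, n = 2), above microglia only, and at rank 8 in KI (415 CPM ± 38.0). For Pcdh19 they were at rank 2 in WT (153 CPM ± 0.341), below mural cells, and at rank 6 in KI (57.0 CPM ± 23.8). For Pcdh8 the rank was 7 in WT and 3 in KI, and for Pcdh17 it was 2 in both. Over the 13 classes the members did not follow one another closely. The highest correlation of mean log2(CPM + 1) between members was 0.67, for Pcdh10 with Pcdh11x, and the lowest was -0.58, for Pcdh11x with Pcdh19. Pcdh7 and Pcdh19 had a correlation of -0.25. These points share libraries and depth and are given as a description.

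Of 14462 other genes, those most like each member over the 13 classes were named by the same correlation. For Pcdh7 they were Ankfn1 (Pearson's r = 0.85), Akap1 (0.85) and Apc2 (0.83), and for Pcdh9 they were Mapt (0.88), Gm48249 (0.86) and Gm16168 (0.86). Pcdh10 was closest to Cyp2j8 (0.92), Gabrg1 (0.88) and Sema4a (0.87), all highest in astrocytes. Pcdh17 was closest to Zfp566 (0.91), Adcy10 (0.91) and Plpp4 (0.85), all highest in OPC, and Pcdh11x to Mbip (0.93), Zdhhc17 (0.91) and Ccdc163 (0.90). The neighbours of Pcdh1 (Prrt1, Zbtb18, Znhit2), Pcdh8 (C1ql2, 1500011B03Rik, Hist3h2ba), Pcdh18 (Enpep, Mospd1, Gm14009) and Pcdh19 (Zbtb49, Gnptg, 4930568G15Rik), with r from 0.83 to 0.98, all shared the sparse mural class as their highest.

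KI was compared with WT in each class by edgeR's quasi-likelihood test on summed counts. Benjamini-Hochberg adjustment ran over all genes of the class, with a threshold of 0.05. Libraries that do not overlap between genotypes are noted below as a description only. With 2 against 2 their exact permutation p is 0.333, and how many of all genes separate so was not counted. Of 117 possible member-by-class results 91 passed the filter on low counts, and 4 passed the threshold, 2 higher and 2 lower in KI. Over all genes 2.8% of the gene-by-class results did so. In DG granule neurons 3 of the 8 members tested passed, against 9.75% of all genes there. They were 2 higher in KI (4.86% of all genes were) and 1 lower (4.88%). Pcdh18 had too few counts to be tested in that class. The median log2 fold change of the 8 was -0.09, and that of all genes 0.00. In the interneuron subtypes 39 of 45 results were tested and 4 passed, all higher in KI, against 1.57% of gene-by-subtype results. In the fits not described further no member passed, and the shares of all genes called were 0.352% in Cajal-Retzius cells, 0.0621% in fibroblasts, 0.221% in mural cells, 0.0183% in subicular or cortical excitatory neurons, 0.738% in Cnr1, 2.37% in Pvalb and 0.0524% in Vip interneurons. In the sum over all nuclei none of the 9 members passed (0.875% of all genes did), with 4 members (Pcdh1, Pcdh7, Pcdh8 and Pcdh19) and 5260 of 21715 genes at an unadjusted p under 0.05. There a change in the make-up of the library and a change within a class cannot be told apart.

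Pcdh7 rose most. In DG granule neurons Pcdh7 stood at 117 and 129 CPM in WT against 442 and 388 CPM in KI. Both KI libraries were above both WT libraries, and the gap between the groups was wider than the spread within either. The fitted change was 3.71-fold (log2 fold change 1.89, SE 0.12, adjusted p = 0.00212). After each nucleus was thinned to 2000 UMIs, 18.6% (exact 95% interval 17.4 to 19.8) and 19.7% (18.3 to 21.1) of WT granule nuclei had at least 1 Pcdh7 UMI, and 53.1% (51.1 to 55.1) and 48.3% (46.2 to 50.5) of KI nuclei did. Unthinned, the shares were 28.6% and 33.4% in WT and 74.3% and 67.2% in KI. Nuclei with exactly 2 UMIs of Pcdh7 made up 3.08% and 3.03% in WT, and 13.04% and 11.96% in KI. In oligodendrocytes, lowest for Pcdh7 by the mean of 4 libraries, the thinned shares were 18.9% and 25.0% (WT) and 24.7% and 23.6% (KI). One WT granule share lay below that range and the other within it. In WT alone, microglia (92.3 CPM), granule neurons (123 CPM) and mural cells (137 CPM) had lower means than oligodendrocytes (149.6 CPM). Oligodendrocytes are thus no floor for the WT granule shares, and whether free RNA contributes there was not tested. Thinning left out 33 to 275 granule nuclei per library, whereas in oligodendrocytes only the 144 to 401 deepest nuclei per library remained. The exact two-sided permutation test over libraries gave p = 0.333, the smallest that 2 against 2 allows. Intervals cover counting error only.

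Pcdh7 (ENSMUSG00000029108) is a long gene, at chr5:57717967-58133230 on the plus strand of GRCm38, with up to 4 exons over 415.3 kb. Pcdh19 (ENSMUSG00000051323) lies at chrX:133582860-133688987 and Pcdh8 (ENSMUSG00000036422), a gene of only 4.5 kb, at chr14:79766775-79771312, both on the minus strand. Pcdh9 (chr14:93013410-93890679, minus strand) and Pcdh11x (chrX:120290259-120910619, plus strand) are long genes like Pcdh7. The bases just upstream of both starts are shown because these genes had the largest rise and fall of the family in DG granule neurons. They are RefSeq sequence (GRCm38.p6), at chr5:57717831-57717966 on the plus strand for Pcdh7 and chrX:133688994-133689243 on the minus strand for Pcdh19, each written 5′ to 3′ on the strand of the gene. Capitals mark matches to the GC box (GGGCGG on either strand) and the CCAAT box (CCAAT on either strand).
Pcdh7: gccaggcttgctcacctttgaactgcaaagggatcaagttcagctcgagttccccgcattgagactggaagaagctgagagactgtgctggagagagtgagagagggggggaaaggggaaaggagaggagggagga
Pcdh19: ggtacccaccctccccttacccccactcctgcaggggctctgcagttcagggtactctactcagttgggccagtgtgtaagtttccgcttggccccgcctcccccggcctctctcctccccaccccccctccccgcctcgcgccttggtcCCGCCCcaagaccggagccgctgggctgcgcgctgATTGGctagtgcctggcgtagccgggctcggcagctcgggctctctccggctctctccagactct
The Pcdh19 stretch held 1 GC box and 1 CCAAT box, and the Pcdh7 stretch held none of the motifs searched. Those were the GC box, the CCAAT box, the TATA box (TATAAA), the cAMP response element (TGACGTCA) and its core (TGACG), the E-box (CACGTG) and the AP-1 site (TGANTCA), on both strands. The core also lies within the full response element. Of 32851 promoter windows of 300 bases, 35.7% held a GC box, 37.4% a CCAAT box, 20.8% the cAMP core, 13.6% a TATA box, 7.81% an AP-1 site, 7.15% an E-box and 1.79% the full cAMP element. Of the 9 members 7 had an entry. Pcdh10, Pcdh17 and Pcdh18 held a GC box as Pcdh19 did. The 6 other than Pcdh7 all held a CCAAT box, Pcdh9 and Pcdh10 the cAMP core, and Pcdh8 a TATA box.

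**Figure D2:**
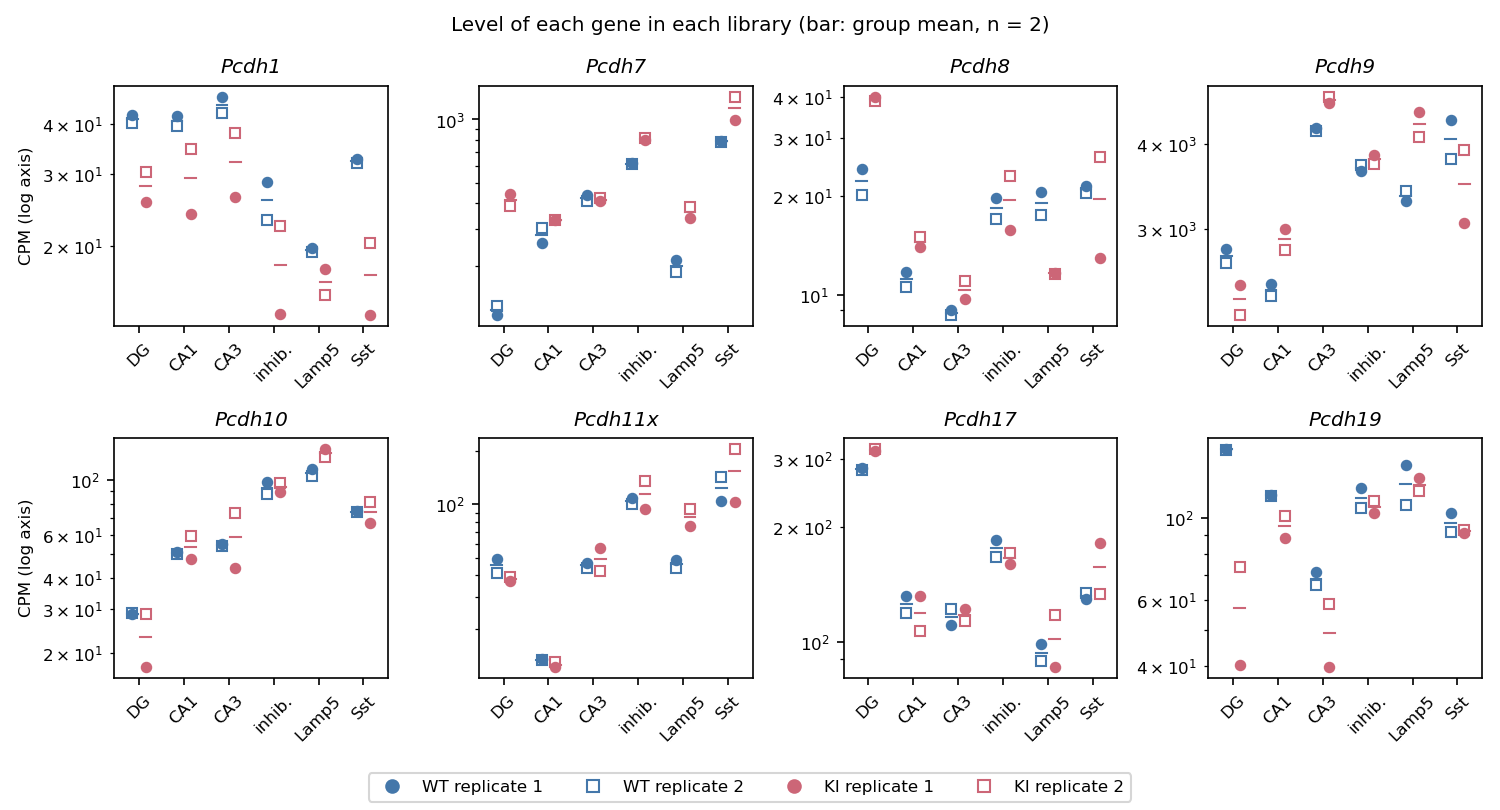
CPM (log axis) of 8 members, without the sparse Pcdh18, in DG granule, CA1 and CA3 pyramidal, all inhibitory, Lamp5 and Sst neurons; points are single libraries and bars the mean of each genotype (n = 2). In DG granule neurons the KI points lie above both WT points for Pcdh7 (442 and 388 against 117 and 129 CPM) and below them for Pcdh19 (40.2 and 73.8 against 153 and 152.5 CPM).

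Pcdh19 fell in the same neurons. Its level was 153 and 152.5 CPM in WT against 40.2 and 73.8 CPM in KI. The groups did not overlap, and the KI libraries differed from each other more than the WT libraries did. The fitted level in KI was 0.405 of that in WT (log2 fold change -1.30, SE 0.24, adjusted p = 0.0254). The thinned share of granule nuclei with a Pcdh19 UMI was 25.7% and 24.3% in WT and 7.24% and 12.9% in KI, whereas oligodendrocytes had 8.85% and 9.05% in WT and 6.23% and 4.86% in KI. The call was lost when either WT library was left out (log2 fold change -1.30 and -1.31, adjusted p = 0.114 both times), with the same direction.

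Pcdh8 rose there as well, from 24.2 and 20.1 CPM (WT) to 39.9 and 38.7 CPM (KI). Both KI libraries were again above both WT libraries. The fitted change was 1.95-fold (log2 fold change 0.96, SE 0.14, adjusted p = 0.0134), and it too lost its call without WT replicate 1 (1.10, adjusted p = 0.112) or WT replicate 2 (0.83, adjusted p = 0.213). A Pcdh8 UMI was seen in few nuclei, though nuclei without one may still hold the transcript. Unthinned, the mean share of granule nuclei with a UMI was 8.67% in WT and 15.9% in KI. After thinning 4.37% and 4.22% of WT and 7.93% and 7.90% of KI granule nuclei had a UMI. In CA3 pyramidal neurons, the class with the lowest Pcdh8 level, 1.81% and 1.88% of WT and 2.63% and 3.55% of KI nuclei did.

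**Figure D3:**
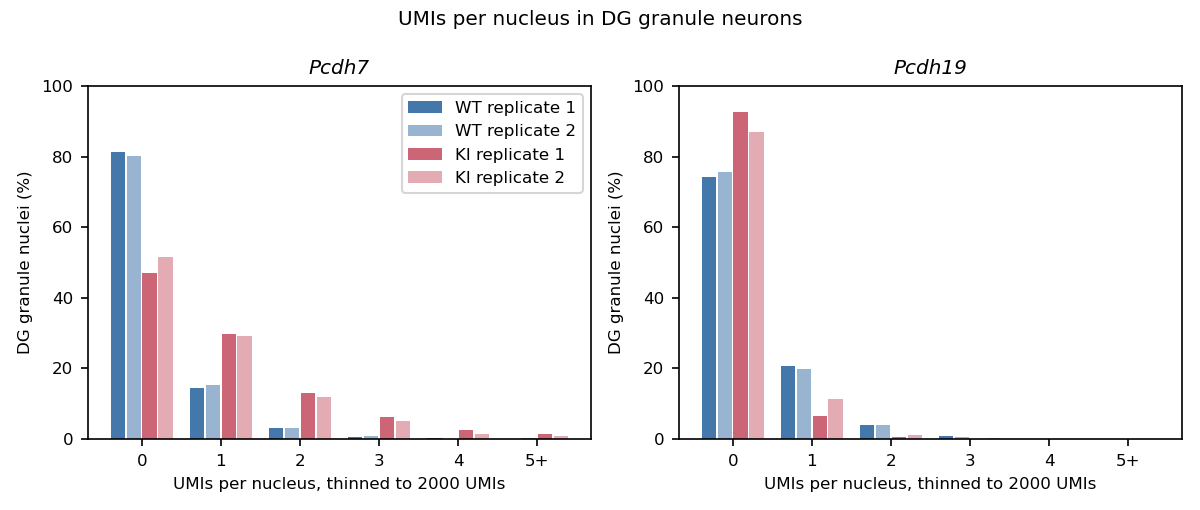
Share of DG granule nuclei (vertical axis, percent) by the number of UMIs per nucleus (horizontal axis) of Pcdh7 and Pcdh19, after thinning each nucleus to 2000 UMIs, for the 4 libraries. For Pcdh7, 18.6% and 19.7% of WT nuclei and 53.1% and 48.3% of KI nuclei have at least 1 UMI.

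Since the granule clusters separated by genotype, levels were also read within each. In the larger cluster Pcdh7 had 102 and 112 CPM in WT against 218 and 195 CPM in KI, and in the smaller one 269 and 321 CPM in WT against 451 and 440 CPM in KI. The genotypes did not overlap in either. For Pcdh19 the larger cluster had 158 and 156 CPM in WT against 40.0 and 82.9 CPM in KI, and the smaller one 102 and 118 CPM in WT against 40.2 and 71.3 CPM in KI, again without overlap. Pcdh8 behaved otherwise. In the larger cluster it had 22.2 and 18.2 CPM in WT against 40.0 and 29.1 CPM in KI, but in the smaller one 44.3 and 40.4 CPM in WT against 39.9 and 41.3 CPM in KI, where the genotypes overlapped. The KI nuclei of the larger cluster were few (102 and 457), and these clusters were made from the same nuclei, so the values are a description.

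**Figure D4:**
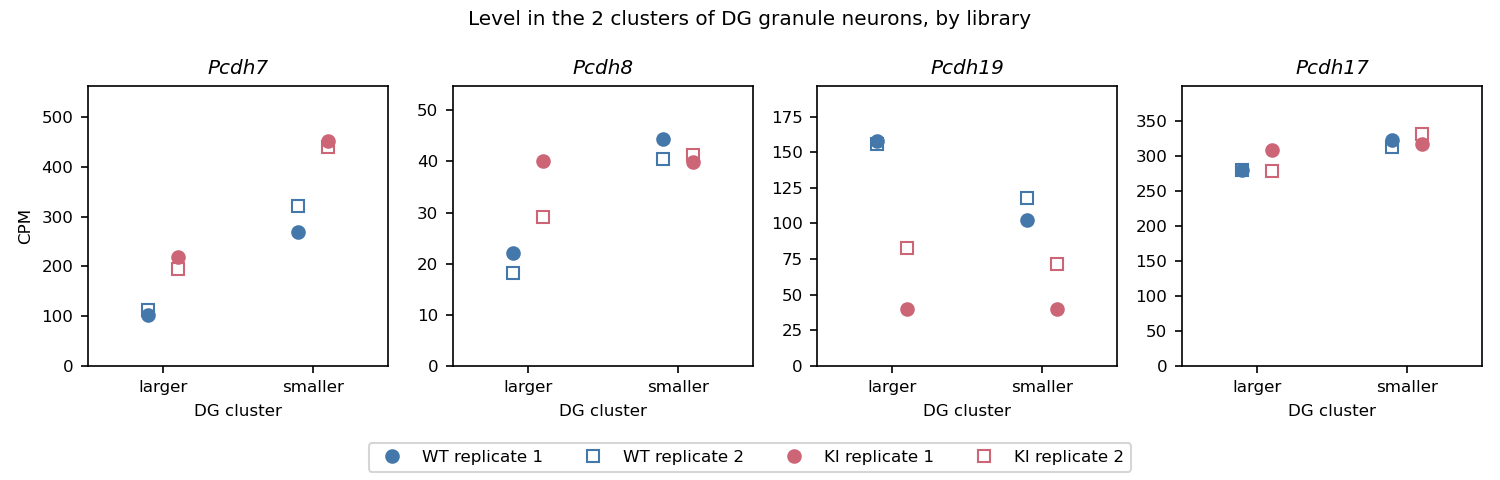
CPM (vertical axis) of Pcdh7, Pcdh8, Pcdh19 and Pcdh17 in the larger (7454 nuclei) and smaller (4851 nuclei) DG granule cluster, with 1 point per library. Pcdh7 is higher in KI within both clusters (218 and 195 against 102 and 112 CPM in the larger, 451 and 440 against 269 and 321 CPM in the smaller), whereas Pcdh8 overlaps in the smaller one.

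Other measures moved with the genotype in these neurons. Besides Malat1, markers of OPC summed to 58.1 and 60.3 CPM in WT against 189 and 133 CPM in KI, against 6489 CPM in OPC themselves, and 2 of the 7 were higher in both KI libraries. Markers of CA1 pyramidal neurons summed to 541 and 540.5 CPM in WT against 818 and 803 CPM in KI, with 2 of the 7 higher in both KI libraries. Those of mossy cells summed to 149 and 166.5 CPM in WT against 206.5 and 193 CPM in KI (3 of 8 higher in both). Markers of CA3 pyramidal neurons summed to 634 and 618 CPM in WT against 421 and 476.5 CPM in KI, and those of CA2 pyramidal neurons to 85.4 and 87.0 CPM in WT against 25.4 and 39.8 CPM in KI. Sums for inhibitory neuron, Cajal-Retzius, astrocyte and ependymal markers were also higher in both KI libraries, and that for microglia was lower. Markers of granule neurons themselves overlapped (4545 and 4222 CPM in WT against 3675 and 4314 CPM in KI). How many of all genes are higher in both KI libraries was not counted, so marker counts, here and below, have no background. The part of these shifts in the results for Pcdh7, Pcdh8 and Pcdh19 was not tested. With scaling to library totals the log2 fold changes were 1.75 for Pcdh7, 0.83 for Pcdh8 and -1.43 for Pcdh19, while the median of all genes shifted by -0.13.

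The remaining members did not pass the test in DG granule neurons. Pcdh17 had 284 and 282 CPM in WT against 316 and 319 CPM in KI (log2 fold change 0.30, adjusted p = 0.0745), and Pcdh1 had 42.1 and 40.0 CPM in WT against 25.6 and 30.5 CPM in KI (-0.42, adjusted p = 0.0889). The libraries of these did not overlap between genotypes. For Pcdh9 (-0.08, adjusted p = 0.62), Pcdh10 (-0.20, adjusted p = 0.582) and Pcdh11x (-0.11, adjusted p = 0.604) the estimates were smaller than or close to their standard errors (0.09, 0.22 and 0.13). Pcdh9 had 2810.0 and 2679 CPM in WT against 2489 and 2248 CPM in KI, and Pcdh11x 49.5 and 41.3 against 37.3 and 39.2 CPM. The KI libraries were thus the lower for both by CPM, which use library totals and not the TMM scaling of the fit. With library totals the median of all genes shifted by -0.13. By CPM 3 of the 9 members lay above WT and 4 below WT in both KI libraries. Pcdh18 had 0.223 and 0.131 CPM in WT against 0.499 and 0.103 CPM in KI.

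In the other large neuron classes no member passed. In CA1 pyramidal neurons 0 of 8 did, while 8.04% of all genes passed by the edgeR test. At an unadjusted p under 0.05 there were 4 of the 8, and 4299 of the 16004 genes tested. Pcdh9 came nearest there, with 2495 and 2400 CPM in WT against 3000 and 2799 CPM in KI (log2 fold change 0.34, adjusted p = 0.0642). In CA3 pyramidal neurons 0 of 8 passed by edgeR (2.7% of all genes called), with 3 of the 8 and 3198 of 15280 genes at an unadjusted p under 0.05. Pcdh19 had a log2 fold change of -0.19 in CA1 and -0.42 in CA3. In all inhibitory neurons together 0 of 9 passed by edgeR (0.0125% of all genes called), with 1 of the 9 and 2298 of 15971 genes at an unadjusted p under 0.05. That one was Pcdh7, with 617 and 616 CPM in WT against 802 and 816 CPM in KI, groups that did not overlap (log2 fold change 0.49, adjusted p = 0.168). The DESeq2 Wald test put its adjusted p at 0.0352. In all, Pcdh7 passed there in 3 of 17 alternatives (log2 fold change 0.38 to 0.50). Some unnamed sub-clusters of this class came almost only from WT replicate 1 and KI replicate 2, with 140, 0, 0 and 97 nuclei of the 4 libraries in the one led by Cpa6 and 101, 0, 2 and 72 in the one led by Dach2. With the named subtypes only, a choice made after the data were seen, 200 genes (1.33%) passed, and Pcdh7 gave 0.42 (adjusted p = 0.0572).

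Lamp5 interneurons, which include neurogliaform cells, held 3 of the member results that passed, all higher in KI, against 3.55% of all genes called and 2.15% called higher. Pcdh7 rose from 213 and 187 CPM (WT) to 338 and 383 CPM (KI, log2 fold change 0.94, SE 0.15, adjusted p = 0.000349). Pcdh11x rose from 48.9 and 44.0 to 75.8 and 94.6 CPM (0.97, SE 0.22, adjusted p = 0.00992), and Pcdh9 from 3294 and 3409 to 4452 and 4093 CPM (0.45, SE 0.11, adjusted p = 0.0186). In each case both KI libraries were above both WT libraries. This was also so for Pcdh10, which did not pass, while for Pcdh1 and Pcdh8 both KI libraries were below. Without WT replicate 2 none of the 3 passed (Pcdh7 0.83, adjusted p = 0.0904, Pcdh11x 0.88, adjusted p = 0.247, Pcdh9 0.46, adjusted p = 0.171), and without WT replicate 1 Pcdh9 (0.44, adjusted p = 0.247) and Pcdh11x (1.07, adjusted p = 0.159) did not. By DESeq2 Pcdh9 (adjusted p = 0.0772) and Pcdh11x (adjusted p = 0.108) did not pass, nor did Pcdh9 with library totals (0.35, adjusted p = 0.0626). Malat1 took 7.61% and 7.25% of Lamp5 UMIs in WT against 11.3% and 10.03% in KI, the median nucleus had 4756 and 4810 UMIs in WT against 6577 and 5547 in KI, and markers of inhibitory neurons summed to 14870 and 14780 CPM in WT against 11780 and 12880 CPM in KI. Markers of mossy cells summed to 371 and 457 CPM in WT against 503 and 563 CPM in KI (2 of 8 higher in both). Those of ependymal cells summed to 18.9 and 22.0 CPM in WT against 36.7 and 37.6 CPM in KI (3 of 6). Markers of CA3 pyramidal neurons summed to 1165 and 1135 CPM in WT against 974 and 981 CPM in KI. Those of Cajal-Retzius cells, which share Reln and Ndnf with the Lamp5 list, fell from 997 and 1339 (WT) to 713 and 966 CPM (KI). Sums for fibroblast and endothelial markers were also higher in both KI libraries, and those for CA2, subicular or cortical and astrocyte markers lower. Their part in the result was not tested. The Pcdh7 values came apart by sub-cluster. In the one led by Hapln1 (539 nuclei) Pcdh7 had 224 and 176 CPM in WT against 190 and 258 CPM in KI, which overlap. In the one led by Kit (278 nuclei), which also had Ndnf among its leading genes, Pcdh7 had 165 and 210 CPM in WT against 666 and 535 CPM in KI, which do not. The Kit sub-cluster gave 47 and 73 Lamp5 nuclei in WT against 55 and 103 in KI, and the Hapln1 one 172 and 129 against 115 and 123. Pcdh9 had higher values in KI in both sub-clusters (4400 and 3910 against 3323 and 3404 CPM in the first, 4568 and 4318 against 3161 and 3421 CPM in the second).

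In Sst interneurons, which inhibit the dendrites of pyramidal neurons, Pcdh7 rose from 786 and 784 CPM (WT) to 998 and 1281 CPM (KI, log2 fold change 0.67, SE 0.13, adjusted p = 0.041), where 0.771% of all genes passed and 0.491% were higher. The call did not hold without WT replicate 1 (0.69, adjusted p = 0.0756) or WT replicate 2 (0.65, adjusted p = 0.0921). With library totals the adjusted p was 0.0509. Malat1 took 9.06% and 8.73% of Sst UMIs in WT against 13.4% and 12.1% in KI, and the median nucleus had 5549 and 5402 UMIs in WT against 7900.0 and 6048 in KI. Markers of inhibitory neurons summed to 4427 and 4320.0 CPM in WT against 3736 and 4099 CPM in KI. Those of subicular or cortical excitatory neurons summed to 546 and 543 CPM in WT against 382.5 and 454 CPM in KI. Markers of mossy cells summed to 244 and 219 CPM in WT against 300.4 and 281.5 CPM in KI (4 of 8 higher in both). Sums for CA3 pyramidal, astrocyte, microglia, endothelial and ependymal markers were also lower in both KI libraries, and that for mural markers was higher. Their part in the result was not tested. The Trpc6 sub-cluster had 773 and 809 CPM in WT against 1103 and 1306 CPM in KI, and the Olfm3 sub-cluster 800 and 752.5 CPM in WT against 788 and 1240 CPM in KI, so that the genotypes overlapped in the second. In the cluster led by Fras1, Pcdh11x fell from 92.6 and 91.4 CPM (WT) to 54.8 and 44.9 CPM (KI, log2 fold change -0.82, SE 0.15, adjusted p = 0.0225), beside 3.58% of all genes called and 1.55% called lower. It did not pass without WT replicate 1 or without WT replicate 2 (-0.80, adjusted p = 0.272, and -0.85, adjusted p = 0.228), nor at a clustering resolution of 1.0 (-0.50, adjusted p = 0.2). Markers of OPC there summed to 59.7 and 59.6 CPM in WT against 123 and 84.3 CPM in KI, and those of Cajal-Retzius cells to 64.6 and 74.1 CPM in WT against 141 and 113 CPM in KI, each with 3 of 7 higher in both KI libraries. Their part in the result was not tested. Over all 18 classes and subtypes fitted, Pcdh1 had a log2 fold change below 0 in 13 of 14 fits that tested it and Pcdh19 in 12 of 16, whereas it was above 0 in 13 of 17 for Pcdh7 and for Pcdh17, 13 of 15 for Pcdh8 and for Pcdh10, 13 of 18 for Pcdh9 and 10 of 17 for Pcdh11x. These fits share libraries, and the subtypes are part of the inhibitory class. How often other genes keep one sign over them was not counted, and Pcdh1 passed in none. Small values also turn on the scaling, since with library totals the median of all genes lay from -0.14 to -0.02 in these fits. Pcdh17 in all inhibitory neurons, for example, had 0.01 while its mean was 176 CPM in WT and 166 CPM in KI.

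In glia no member passed the edgeR test, and few genes did, with 0.838% of all genes in OPC, 0.75% in oligodendrocytes, 0.0093% in astrocytes and 0.0% in microglia. Microglia had 106 and 78.2 CPM of Pcdh7 in WT and 204 and 294 CPM in KI (log2 fold change 1.45, SE 0.32, adjusted p = 0.496), from 1050 nuclei in all. Astrocytes had 809.8 and 1047 CPM in WT against 764 and 721 CPM in KI (-0.28, SE 0.22, adjusted p = 0.719), so both KI libraries were the lower. OPC, with 1328 and 1268 CPM in WT against 959 and 1111 CPM in KI, gave -0.23 (SE 0.14, adjusted p = 0.555). For Pcdh19 in OPC the log2 fold change was -0.87 (adjusted p = 0.194) and for Pcdh11x it was -0.48 (adjusted p = 0.195), from 622 and 729 CPM in WT against 402 and 508 CPM in KI.

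**Figure D5:**
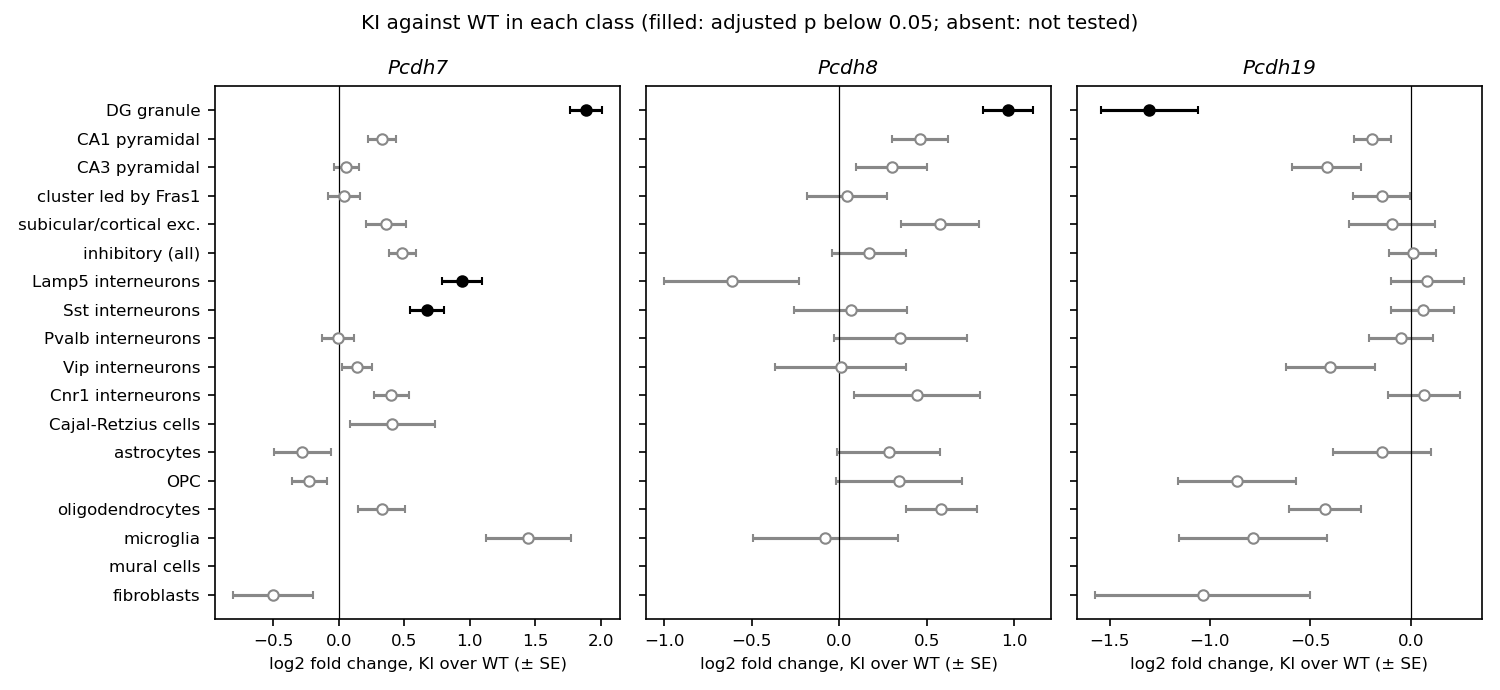
Log2 fold change of KI against WT (edgeR) with its SE (bars) for Pcdh7, Pcdh8 and Pcdh19 in the classes and subtypes that tested them; filled points have an adjusted p under 0.05. Filled points stand at DG granule neurons in all 3 panels (1.89, 0.96 and -1.30) and, for Pcdh7 only, at Lamp5 (0.94) and Sst interneurons (0.67).

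Whether the change in DG granule neurons differed from that in other classes was tested directly, with a class-by-genotype term and the library as a block. Over the 12 comparisons of DG granule neurons with another class 23 member results passed, and 4.22% of all gene-by-pair results did. For Pcdh7 the change in DG granule neurons was larger than in CA1 pyramidal neurons by 1.56 on the log2 scale (SE 0.09, adjusted p = 7.1e-07) and than in CA3 pyramidal neurons by 1.83 (SE 0.11, adjusted p = 8.5e-08), where 13.5% and 11.2% of all genes differed. In the other comparisons with DG granule neurons the share of all genes that differed was 9.02% for the cluster led by Fras1, 4.65% for inhibitory neurons, 2.9% for OPC, 2.73% for oligodendrocytes, 2.47% for subicular or cortical excitatory neurons, 1.3% for astrocytes, 0.605% for fibroblasts, 0.417% for Cajal-Retzius cells, 0.28% for microglia and 0.083% for mural cells. Pcdh7 passed in 10 of the 12 comparisons, and those with microglia (0.45, adjusted p = 0.983) and mural cells (1.12, adjusted p = 1) did not pass. Of the 10, that with Cajal-Retzius cells passed in only 3 of 6 alternatives (0.97 to 1.95) and that with subicular or cortical excitatory neurons in 4 of 6. For Pcdh19 the change was lower in DG granule neurons in 6 comparisons, by -1.14 against CA1 (SE 0.16, adjusted p = 0.000569) and -0.91 against CA3 pyramidal neurons (SE 0.12, adjusted p = 0.00013). Of the 6, that with oligodendrocytes passed in only 2 of 6 alternatives (-1.34 to -0.52) and that with subicular or cortical excitatory neurons in 3 of 6. Pcdh8 differed from CA1 pyramidal neurons (0.51, adjusted p = 0.0326), CA3 pyramidal neurons (0.66, adjusted p = 0.0316) and the cluster led by Fras1 (0.93, adjusted p = 0.011). These Pcdh8 differences passed in only 1, 2 and 3 of 6 alternatives, with a highest adjusted p of 0.311, 0.254 and 0.205. Without the library block 14 of the 23 results no longer passed. Between CA1 and CA3 pyramidal neurons 0 of 8 members differed by edgeR (Pcdh7 and Pcdh19 were at an unadjusted p under 0.05, as were 2615 of 16705 genes), where 4.06% of all genes did, and 0 to 3 members passed with each library left out.

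Overlapping genes limit what some counts mean, because whether the counting used the strand was not stated in the sources used here. The transcript 4932441J04Rik, opposite Pcdh7, had 41, 29, 170 and 96 UMIs in DG granule neurons of WT replicates 1 and 2 and KI replicates 1 and 2, against 13156 for Pcdh7 in all. The antisense gene of Pcdh17, 9630013A20Rik, had 605 and 515 UMIs in WT and 384 and 359 in KI. That of Pcdh10, 1700027H10Rik, had 40 and 35 in WT and 1 and 4 in KI, and that of Pcdh8, Gm9748, had 18 UMIs in all.

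Known partners of the family were read from lists chosen with earlier results known. Of the WAVE complex, to which delta-2 tails bind, 11 of 11 subunits were tested in DG granule neurons and none passed by edgeR, against 9.75% of all genes (median log2 fold change -0.16). At an unadjusted p under 0.05 there were 2 of the 11, and 4804 of the 16385 genes tested. None passed in CA1, CA3 or inhibitory neurons either (1, 2 and 2 at an unadjusted p under 0.05). Cyfip2 in DG granule neurons had 201 and 201.1 CPM in WT against 195 and 177 CPM in KI (log2 fold change 0.02, adjusted p = 0.903). By CPM both KI libraries were lower, whereas the fit, scaled by TMM and not by library totals, gave a slightly positive value. Of 10 other reported partners 0 passed in DG granule neurons by edgeR (1 at an unadjusted p under 0.05). In CA1 pyramidal neurons 2 of 10 passed, against 8.04% of all genes. Grin1, the obligatory NMDA receptor subunit, rose from 372 and 388 to 599.6 and 485 CPM (0.61, adjusted p = 0.0405), and Set, the phosphatase inhibitor bound by Pcdh7, fell from 33.8 and 29.5 to 19.6 and 20.3 CPM (-0.58, adjusted p = 0.0491). Of the other nonclustered protocadherins Pcdh12 and Pcdh20, 1 was tested and none passed in these classes (Pcdh20 at an unadjusted p under 0.05 in DG granule and CA1 pyramidal neurons).

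Of 19 classical cadherins, the wider superfamily, 16 were tested in DG granule neurons and 3 passed, where 9.75% of all genes did. Cdh7 rose from 4.06 and 4.32 CPM (WT) to 37.5 and 40.3 CPM (KI), with a log2 fold change of 3.35, and Cdh18 from 56.2 and 51.8 to 90.7 and 112 CPM (1.04, adjusted p = 0.00721). Cdh11 fell from 210.3 and 221 to 104 and 132 CPM (-0.74, adjusted p = 0.0157). In CA1 pyramidal neurons 5 of 15 passed (8.04% of all genes did), with Cdh18 higher (1.09) and Cdh20 (-1.30), Cdh6 (-0.97), Cdh4 (-0.51) and Cdh8 (-0.42) lower. In CA3 pyramidal neurons 1 of 15 passed (2.7% of all genes), Cdh24, which fell (-1.31), and in all inhibitory neurons 0 of 15 passed by edgeR (2 at an unadjusted p under 0.05). Outside these 4 groups of neurons, 3 of the 10 other partners passed in Lamp5 interneurons (3.55% of all genes) and 1 in each of the Cnr1 (0.738%), Pvalb (2.37%) and Sst subtypes (0.771%), and 1 classical cadherin passed in each of oligodendrocytes (0.75%), the cluster led by Fras1 (3.58%) and Lamp5 interneurons.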

How the data were processed

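Nuclei of both hippocampi of each mouse were profiled by droplet 3' single-nucleus RNA-seq. The deposited matrices hold raw UMI counts per gene and barcode, which the authors made with Cell Ranger on mm10 after its cell calling, and no values were normalized. Strand use and intron counting were not given in the sources used here. The 9 members and all gene lists (WAVE complex, other reported partners, other nonclustered protocadherins, classical cadherins, cell type markers) were chosen with earlier results of these data known, and the limits for naming clusters were set after the clusters were seen.

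Barcodes below 500 genes or at 5% mitochondrial UMIs and above were dropped, and Scrublet doublets (score above 0.25) were removed. With scanpy 1.11.5, 2000 variable genes without the 9 members, 30 principal components, 20 neighbours and leidenalg 0.10.2 (resolution 0.5) gave clusters, named where at least 3 markers and 50% of a list were raised 2-fold. UMIs were summed per class and library. KI and WT (n = 2 each) were compared in edgeR 4.0.16 (R 4.3.3) (quasi-likelihood F-test after filterByExpr and TMM), and p-values were adjusted by Benjamini-Hochberg over all genes of each of 19 fits. DESeq2 1.42.0 and the other settings were alternatives. The named genes were all members, list genes that passed in DG granule, CA1, CA3 or inhibitory neurons, Cyfip2, and the 3 genes most correlated with each member over 13 classes among those reaching 10 CPM in a class. Tested on simulated data in DG granule neurons, edgeR recovered 92.4% of 4-fold, 59.7% of 2-fold and 11.9% of 1.5-fold changes among 16106 genes. Each size was given to 66 or 67 genes, and 14 unchanged genes also passed the threshold. In CA1 pyramidal and inhibitory neurons 21 and 22 unchanged genes did. The class-by-genotype test of DG granule against CA1 neurons recovered 87.9%, 61.2% and 44.8% of these sizes among 16825 genes, and 8 unchanged genes passed. Gene positions are from GENCODE on GRCm38 and promoter windows from RefSeq. Replicate numbers did not mark a shared litter or day in the labels.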

Additional observations from a re-analysis of the deposited data

Results flagged for a closer look

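The genotype effect in DG granule neurons differed from that in another class by a direct edgeR test (class-by-genotype term, adjusted p under 0.05) in 23 results, each given as the effect in DG granule neurons minus that in the other class on the log2 scale. For Pcdh7 the differences were 1.56 against CA1 pyramidal neurons, 1.83 against CA3 pyramidal neurons, 1.46 against Cajal-Retzius cells, 2.10 against OPC, 2.21 against astrocytes, 2.35 against fibroblasts, 1.40 against inhibitory neurons, 1.59 against oligodendrocytes, 1.53 against subicular or cortical excitatory neurons and 1.85 against the cluster led by Fras1. The one against Cajal-Retzius cells passed in only 3 of 6 alternatives (0.97 to 1.95, highest adjusted p = 1), that against subicular or cortical excitatory neurons in 4 of 6 (highest adjusted p = 0.0945), and the other 8 in 6 of 6.

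For Pcdh19 they were -1.14 against CA1 pyramidal neurons, -0.91 against CA3 pyramidal neurons, -1.36 against inhibitory neurons, -0.95 against oligodendrocytes, -1.22 against subicular or cortical excitatory neurons and -1.19 against the cluster led by Fras1. The one against oligodendrocytes passed in only 2 of 6 alternatives (-1.34 to -0.52, highest adjusted p = 0.38), that against subicular or cortical excitatory neurons in 3 of 6 (highest adjusted p = 0.265), and the other 4 in 5 of 6, each losing its call without the library block. For Pcdh8 they were 0.51 against CA1 pyramidal neurons, 0.66 against CA3 pyramidal neurons and 0.93 against the cluster led by Fras1. Pcdh9 differed from CA1 pyramidal neurons by -0.40. Against the cluster led by Fras1, Pcdh10 differed by -0.50, Pcdh17 by 0.43 and Pcdh11x by 0.71, and these 3 passed in only 2, 2 and 3 of 6 alternatives, with a highest adjusted p of 0.54, 0.424 and 0.214. Those of Pcdh8 passed in 1, 2 and 3 of 6 and that of Pcdh9 in 3 of 6. All of these share the DG granule sums, so they are not independent of each other. Without the library block 14 of the 23 no longer passed.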

How the results depend on the processing

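With 2 mice per group, single libraries decided many calls. The rise of Pcdh7 in DG granule neurons kept its direction and side of the threshold in all 16 alternatives (log2 fold change 1.72 to 2.01, highest adjusted p = 0.0183, and 1.76 to 2.01 with each library left out). Leaving out each library gave 0.83 to 1.10 for Pcdh8 and -1.76 to -0.95 for Pcdh19 there. Of member-by-class results 4 passed, against 8 with no filter on low counts, 7 with the crossed replicate block (added after the data were seen) and 1 to 27 with each library left out (1 without either WT library, 17 without KI replicate 1, 27 without KI replicate 2). Of subtype results 4 passed, against 2 with library totals, 2 with DESeq2 and 0 to 9 with each library left out. Of between-class differences 23 passed, against 9 with no library block and 13 to 35 with each library left out. The partner and cadherin lists gave 11 calls in DG granule, CA1, CA3 and all inhibitory neurons, 27 with no filter, 22 with the replicate block and 5 to 57 with each library left out. These counts moved with the share of all genes called. In DG granule neurons that was 9.75%, against 13.1% with no filter, 18.0% with the replicate block, 1.08% without either WT library, 25.1% without KI replicate 1 and 46.4% without KI replicate 2. In Lamp5 cells it was 3.55%, against 0.8% with DESeq2 and 0.5% to 10.1% with each library left out, and in Sst cells 0.771%, against 0.796% to 12.5%. The highest class was that of the CPM order for 3 of 9 members when levels were mean UMIs per nucleus. The difference in the share of granule nuclei with a Pcdh7 UMI was 31.5 percentage points, 39.8 unthinned and 21.9 thinned to 1000 UMIs. The cause of these differences was not tested. With the replicate number as a block, 5 class and 5 subtype results passed and Pcdh7 in DG granule neurons gave 1.89. Over genes, the log2 CPM difference of replicate 1 from replicate 2 in WT correlated with that in KI at -0.03 in DG granule neurons. Over the fits it ran from -0.19 to 0.23, highest in subicular or cortical excitatory neurons. There the replicate block raised the share of all genes called from 0.0183% to 3.54%. Whether same-numbered libraries share anything besides a number was not tested. Mural cells and Pcdh18 were too sparse to compare.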

Other observations

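Classes with too few nuclei to be fitted gave values only. Endothelial cells (96 nuclei) had 190.5 and 206 CPM of Pcdh19 in WT and 146 and 126 CPM in KI, second to mural cells among all the classes named, from 10, 10, 6 and 11 UMIs. Pcdh1 in the same cells had 57.2 and 61.7 CPM in WT against 72.9 and 114 CPM in KI, from 3, 3, 3 and 10 UMIs, so that no difference between genotypes can be read.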
